A study of Sus scrofa with 16 samples.

Results

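Chromatin accessibility at the insulin-like growth factor (IGF) axis and at fetal growth genes was followed through 10 genes, IGF1, IGF2, IGF1R, GHR, IGFBP1, IGFBP2, IGFBP3, IGF2BP3, HMGA2 and LIN28B. They were chosen by name out of 19560 protein-coding genes placed on chromosomes in the RefSeq annotation of the pig assembly Sscrofa11.1, and all 10 were found there. Accessibility had been measured by ATAC-seq, in which a transposase cuts and tags open DNA so that sequenced fragments pile up into peaks, in 16 libraries. The liver was sampled at 3 ages, newborn (day 0), suckling (day 28) and adult (day 180), and heart, kidney, lung, skeletal muscle and spleen were sampled in newborns. Every group held 2 libraries of female crossbred domestic pigs, which the study describes as full siblings of a Berkshire and Tibetan cross, with the 6 newborn tissues taken from the same animals. No group carried an altered allele or received an agent, and the age groups were different animals. Each tissue was processed whole, so a peak may come from any of the cell types in it, and fewer cells of a type cannot be told apart from less open chromatin per cell.

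Growth hormone acts on the liver through its receptor GHR, the kinase JAK2 and the transcription factor STAT5, and IGF1 is the best known target of this route after birth. IGF2 is the main IGF of the fetus, is expressed from the paternal copy in many tissues and is transcribed from several promoters. Both ligands signal through the receptor IGF1R and travel bound to IGF-binding proteins. LIN28B and IGF2BP3 are RNA-binding proteins and HMGA2 is a chromatin protein, all characteristic of fetal and proliferating cells, and LIN28B blocks the maturation of a microRNA family that represses HMGA2 and IGF2BP3.

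Each group had been deposited as 1 peak list merged from its 2 libraries, with the −log10 p of each replicate for every peak. Percentiles below give the place of a replicate's −log10 p among all peaks of the same list and replicate, from 0 for the weakest to 100 for the strongest, because −log10 p itself depends on a library's depth, which the lists do not hold. Peaks whose irreproducible discovery rate (IDR), a measure of how well both replicates rank a peak alike, was 0.05 or lower are called reproducible. Such peaks made up 19.2% of the newborn, 33.8% of the suckling and 50.4% of the adult liver list. Replicates stood apart in newborn liver, with median −log10 p of 24.8 and 8.66, and in lung, with 6.15 and 22.5, so values of both replicates are given throughout. With 2 libraries against 2 the smallest two-sided p of an exact permutation test is 0.33, so no p is given and ages are compared by whether the replicate percentiles overlapped. A region is a stretch of touching peaks of the compared lists.

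The tissue labels were checked on promoter peaks of marker genes. Liver lists had them at 5, 6 and 6 of 6 liver markers in newborn, suckling and adult, and it was ALB (albumin) that lacked a promoter peak in newborn liver. The other tissues had promoter peaks at 5 of 5 heart, 5 of 6 kidney, 5 of 6 lung, 6 of 6 muscle and 6 of 6 spleen markers in their own lists. Each set had its highest count in its own tissue. The margin was narrow for muscle markers, with 5 of 6 in kidney and 4 of 6 in newborn liver and in lung. Heart markers had 3 of 5 in kidney, and the other sets had at most 3 of 6 outside their own tissue. Markers of other cells moved with liver age. Erythroid promoters were open at 7, 3 and 2 of 8 genes from newborn to adult liver, and T cell promoters at 2, 6 and 5 of 6, while macrophage promoters stayed at 4 of 6.

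In the liver, nearly every member had a promoter peak at each age. All 10 had a promoter peak, from 2.2 kb upstream to 500 bp downstream of a transcription start site (TSS), in newborn and suckling liver and 9 in adult liver, where LIN28B had none. Counting reproducible peaks alone, 4, 7 and 6 members had one at the same 3 ages, fewest in the newborn. Of all protein-coding genes 73.7%, 75.0% and 69.8% had a promoter peak at these ages, and 5.44% had one in newborn and none in adult liver. The window of a gene, its body with 10 kb either side and its promoters, was used to count further peaks. By age the 10 windows held 147, 179 and 152 liver peaks, which was 0.122%, 0.126% and 0.139% of each list. Of all protein-coding genes 28.4% had more and 46.2% fewer window peaks in adult than in newborn liver. Among the members IGF1, IGFBP1, IGFBP2 and GHR had more, IGF2, IGF1R, IGF2BP3, HMGA2 and LIN28B had fewer, and IGFBP3 had 4 at both ages.

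**Figure D1:**
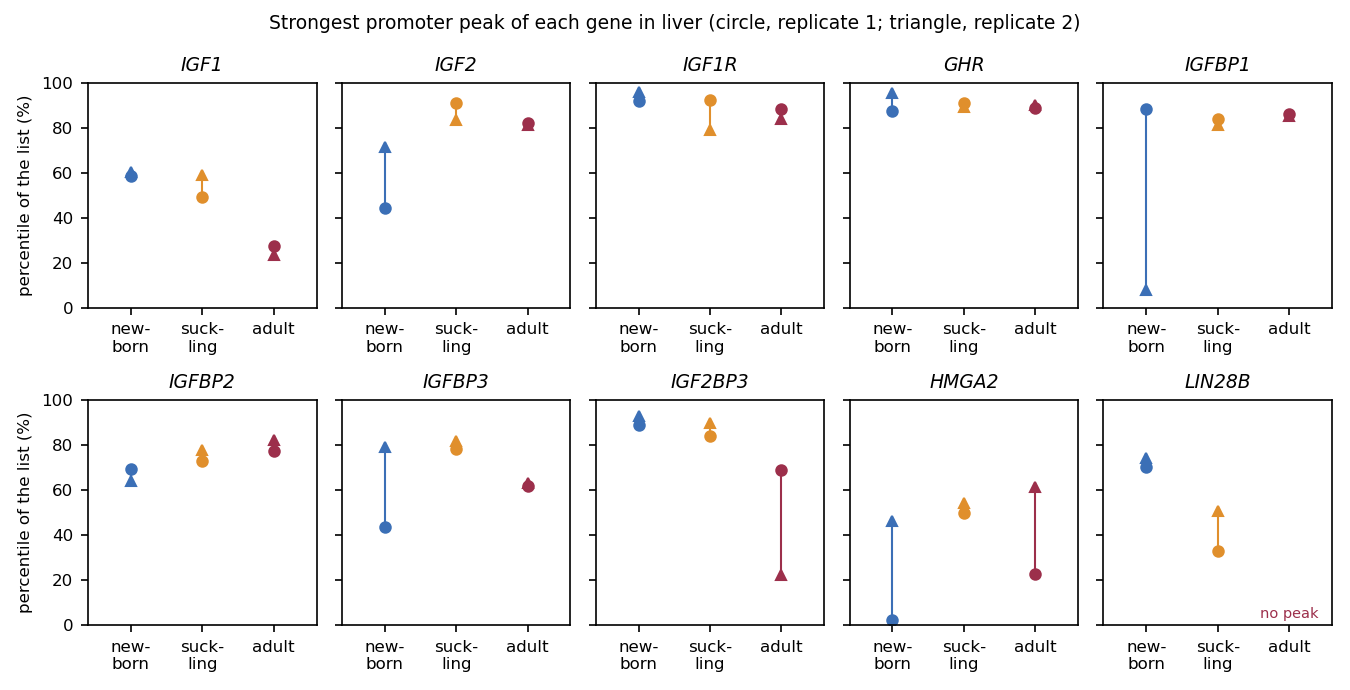
Percentile (0 to 100) of the strongest promoter peak of each member in newborn, suckling and adult liver, with replicate 1 as circles and replicate 2 as triangles. GHR and IGF1R stayed in the upper part of the scale at all 3 ages, LIN28B had no promoter peak in adult liver, and the IGF2 peak lies at a downstream promoter in newborn and at the upstream promoter in suckling and adult liver. The plotted IGF1 peak lies at the main TSS cluster in newborn and suckling liver. In adult liver it is the peak 2.1 kb before the gene, at 27.3 and 23.4. The LIN28B peak also differs in site between newborn and suckling liver.

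IGF2 (chr2:1469183-1496417, minus strand) had an upstream promoter that was called in the older livers and not in the newborn one. Its 15 annotated TSSs fall into an upstream group of 5, a lone TSS and a downstream group of 9. The upstream promoter, at chr2:1496147-1496417, had no peak in newborn liver. In suckling liver a peak of 728 bp covered these TSSs with −log10 p of 33.5 and 34.4 in replicates 1 and 2, at percentiles 91.1 and 83.7. In adult liver the peak was 2094 bp wide and reached −log10 p of 100 and 98.0, at percentiles 82.1 and 81.3. Both peaks were reproducible. Newborn liver had a weaker peak 1.75 kb into the gene, at 17.7 and 52.0, and suckling liver a separate reproducible one at 1.41 kb, at 68.2 and 70.8. The wide adult peak joined all of these into 1 region (chr2:1494545-1496638), which is counted below as called at all 3 ages. The 200 bases just before the outermost TSS, under both peaks (chr2:1496418-1496617, minus strand, read 5′ to 3′ along the gene) are shown because this promoter carries the age difference of IGF2, and no motif searched here falls in them:
IGF2 upstream promoter: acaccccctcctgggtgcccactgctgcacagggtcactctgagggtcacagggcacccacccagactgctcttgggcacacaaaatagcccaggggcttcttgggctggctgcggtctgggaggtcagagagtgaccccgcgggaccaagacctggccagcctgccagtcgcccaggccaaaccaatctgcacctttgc

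At the downstream IGF2 promoters the ages shared a peak (chr2:1475438-1475641). It had −log10 p of 19.4 and 15.3 in newborn liver (percentiles 44.4 and 71.6), 19.2 and 20.8 in suckling liver (81.3 and 71.2), and 35.7 and 40.3 in adult liver (64.7 and 61.5). Replicates of newborn and adult liver overlapped, and the adult percentiles lay below both suckling ones by a gap of 6.5. A neighbouring downstream promoter (chr2:1477149-1477548) was open in newborn liver alone among the ages, at percentiles 35.0 and 63.6, with peaks over it in newborn heart and kidney. Weak peaks of 1 age each lay at chr2:1480013-1480185 in suckling (percentiles 11.2 and 6.05) and at the lone TSS, chr2:1485029-1485147, in adult liver (9.11 and 0.559). The strongest IGF2 peak outside promoters in newborn liver, 5.6 kb into the gene (chr2:1490563-1490956), was at percentiles 40.3 and 64.8 and its suckling counterpart at 12.0 and 11.8, with no peak in the adult. Another stretch past the end of the gene (chr2:1468202-1469105) was at 48.3 and 22.2 in newborn and 21.5 and 12.0 in adult liver. IGF2 thus had 8, 5 and 4 window peaks by age, of which 0, 3 and 2 were reproducible, so the order of newborn and adult was reversed among reproducible peaks. No IGF2 liver region overlapped the neighbouring INS or TH genes.

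IGF1 (chr5:81762027-81909253, plus strand) kept open start sites at all ages and had stronger intronic peaks in the adult. Its main TSS cluster (chr5:81775142-81777040) was at percentiles 58.8 and 60.4 in newborn liver, 49.5 and 59.1 in suckling liver and 20.8 and 56.6 in adult liver, and none of these peaks was reproducible. The adult replicates lay just below the newborn ones, by a gap of 2.2. A weak peak 2.1 kb before the gene start (chr5:81759800-81760125) was called in newborn (45.1 and 23.2) and adult liver (27.3 and 23.4). The window held 18, 22 and 22 peaks, of which 2, 7 and 12 were reproducible. Reproducible peaks also made up more of the later lists, with 19.2%, 33.8% and 50.4% by age, so a rise with age was not particular to IGF1. With 57126 top peaks from every list, IGF1 had 10, 8 and 13 window peaks. By replicate 2 alone the counts were 6, 8 and 15, and by replicate 1 alone 12, 6 and 13. Without replicate 2 the adult count thus exceeded the newborn one by only 1.

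Inside the gene, the strongest IGF1 peak of suckling and adult liver lay 46.4 kb from the gene start (chr5:81808166-81808744). It had −log10 p of 136 and 8.59 in newborn liver (percentiles 84.3 and 48.7), 19.9 and 32.0 in suckling liver (82.2 and 82.1), and 225 and 193 in adult liver (95.3 and 93.6). Both adult replicates were above all newborn and suckling replicates, by 11.4 percentile points over suckling liver. The strongest newborn peak, 83.0 kb into the gene (chr5:81844272-81845255), overlapped between ages, with 75.7 and 85.1, then 81.5 and 84.3, then 87.8 and 80.8. Among regions called at all ages the widest gap, 17.0 points from suckling to adult, was at chr5:81797220-81797572, where percentiles were 59.3 and 51.1, 49.0 and 47.3, and 70.8 and 66.0.

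Other regions of IGF1 were called late or only in the adult. An intronic region 26.7 kb from the gene start (chr5:81788604-81789223) was called in adult liver alone, with −log10 p of 18.1 and 51.7 (percentiles 49.7 and 67.5), and it was the only reproducible region of the gene seen at 1 age. A peak in newborn lung overlapped it. Singled out after their values were seen, a region 0.9 kb after the gene start (chr5:81762667-81763172) was not called in newborn liver or in any other newborn tissue, lay at 55.5 and 46.6 in suckling liver and reached 77.0 and 81.3 in adult liver, and a region at 28.1 kb (chr5:81790010-81790353) was at 30.4 and 7.86 in newborn and 59.6 and 76.6 in adult liver. Of 16 IGF1 regions shared by suckling and adult liver, 6 had adult percentiles above both suckling ones and 2 below. Over all 78761 shared regions these shares were 19.9% and 42.6%, so the IGF1 count of higher regions, 37.5%, was above the general share and that of lower regions, 12.5%, below it. Printed next are the adult region and the late region after the gene start, with matches to the CEBP letters TTGCNNAA on either strand in capitals:
IGF1 intron, adult liver alone, chr5:81788668-81788867, plus strand: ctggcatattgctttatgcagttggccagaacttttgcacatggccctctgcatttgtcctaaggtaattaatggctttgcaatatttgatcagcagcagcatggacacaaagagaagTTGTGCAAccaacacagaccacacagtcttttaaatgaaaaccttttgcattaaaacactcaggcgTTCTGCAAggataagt
IGF1 after the gene start, suckling and adult liver, chr5:81762787-81762986, plus strand: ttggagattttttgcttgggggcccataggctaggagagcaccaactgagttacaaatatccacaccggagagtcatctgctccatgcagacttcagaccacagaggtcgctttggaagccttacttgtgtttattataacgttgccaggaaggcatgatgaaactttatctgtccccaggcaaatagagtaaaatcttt

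**Figure D2:**
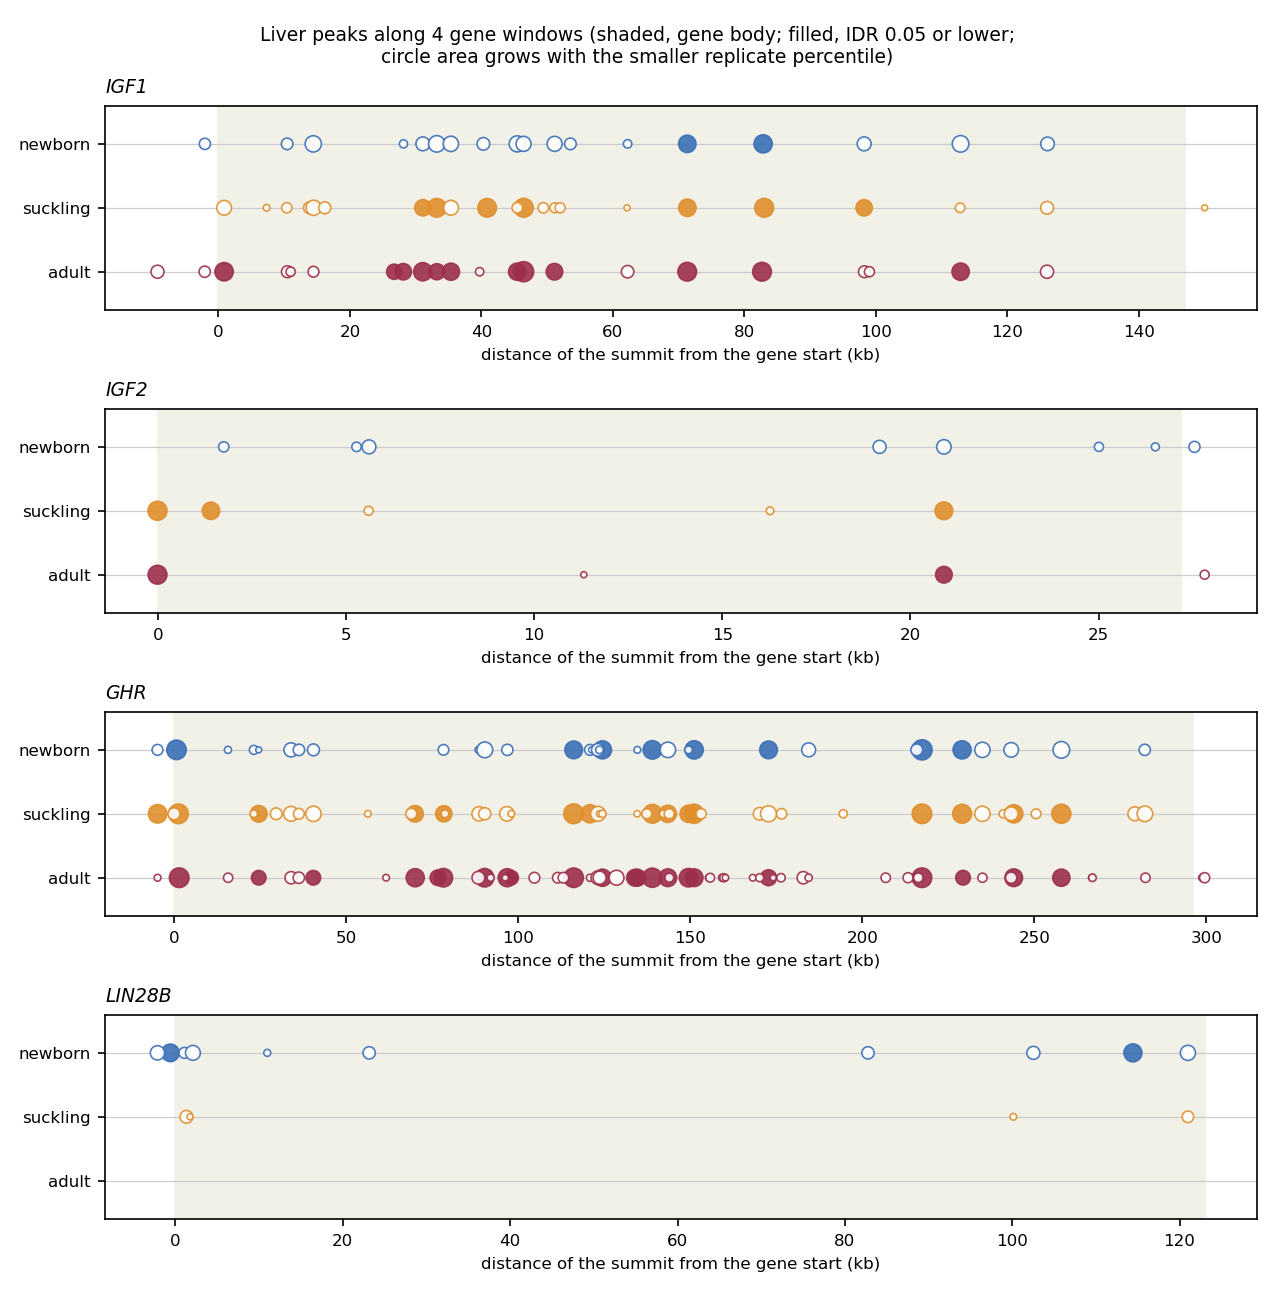
Liver peaks at IGF1, IGF2, GHR and LIN28B by distance from the gene start in kb, 1 row per age, with filled points for peaks at an IDR of 0.05 or lower and point area by the smaller replicate percentile. The 10 newborn, 4 suckling and 0 adult peaks of LIN28B contrast with the 32, 47 and 60 peaks of GHR, and the upstream IGF2 promoter at 0 kb is filled in suckling and adult liver alone.

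GHR (chr16:27126300-27422618, plus strand), the growth hormone receptor, had more intronic peaks at the later ages while its main promoter was strong throughout. The main promoter (chr16:27125852-27128251) had percentiles of 87.7 and 95.6 in newborn, 91.3 and 89.3 in suckling and 89.0 and 90.2 in adult liver, and it was reproducible at each age. The window held 32, 47 and 60 peaks. Of 17765 genes with a window peak in either list, 1 had a larger increase from newborn to adult liver than the 28 of GHR. GHR is a long gene, and its reproducible peaks, 8, 15 and 22, made up 25.0%, 31.9% and 36.7% of its peaks, against the 19.2%, 33.8% and 50.4% of the lists. With the same number of strongest peaks taken from every list, 57126, GHR had 12, 18 and 24. Taken by replicate 2 alone the counts were 12, 17 and 24, and by replicate 1 alone 21, 19 and 24, so that without replicate 2 the adult count exceeded the newborn one by only 3.

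Among 69 GHR liver regions 26 were called at all 3 ages, 22 in the adult alone and 0 in the newborn alone. The adult regions were mostly weak. Their smaller replicate percentile ranged from 0.561 to 52.4 with a median of 9.64, 19 of the 22 lay in introns, and 11 overlapped a peak of another newborn tissue. The only reproducible one was a peak at an internal GHR promoter (chr16:27202750-27203227) with −log10 p of 42.9 and 28.4 in adult liver, at percentiles 68.1 and 52.4. It covers a TSS at position 27203161, was not called in newborn or suckling liver and had overlapping peaks in newborn kidney and lung. It is shown as the only GHR promoter called at 1 liver age, and it holds no searched motif within 100 bases of its summit:
GHR internal promoter, adult liver, chr16:27202880-27203079, plus strand: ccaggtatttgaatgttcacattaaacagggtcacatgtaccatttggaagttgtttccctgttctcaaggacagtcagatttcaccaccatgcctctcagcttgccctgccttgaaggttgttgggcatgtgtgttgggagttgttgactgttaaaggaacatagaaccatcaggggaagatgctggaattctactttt

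Within the GHR introns the strongest newborn and adult peak (chr16:27343183-27343901, 217.4 kb from the gene start) was at 95.6 and 94.9 in newborn, 91.4 and 88.7 in suckling and 88.8 and 89.3 in adult liver. Newborn percentiles were above both later ages there, by 5.5 points over the adult. An opposite order was seen at the strongest suckling peak (chr16:27242206-27242798), with 77.0 and 71.0, then 92.8 and 90.4, then 91.4 and 87.5, so that newborn lay below both later ages. The widest gap between ages, 44.4 points, was at chr16:27259922-27261329, a region of 1408 bp. Its percentiles were 87.3 and 2.81 in newborn, 19.6 and 1.52 in suckling and 83.4 and 64.0 in adult liver, and the newborn replicates disagreed too much to order that age.

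IGF1R (chr1:137383623-137691038, minus strand), the receptor through which both IGF ligands signal, had a promoter that was strong at all ages. Its main promoter (chr1:137690907-137692720) was at 91.9 and 95.9 in newborn, 92.5 and 79.0 in suckling and 88.3 and 84.1 in adult liver. Weak promoter peaks further in were called in suckling and adult liver (chr1:137689027-137689563, at 19.7 and 23.0, then 3.86 and 13.1) or in suckling liver alone (chr1:137689700-137689807, at 26.5 and 5.50). The window held 33, 47 and 28 peaks, an increase and a decrease that 76 of 18130 and 59 of 18095 genes exceeded. The rise at the suckling age was not kept with 57126 top peaks from every list, where the counts were 18, 12 and 15, nor by replicate 1 (13, 13 and 15) or replicate 2 alone (17, 13 and 13). From newborn to suckling liver 52.7% of genes had more and 22.6% fewer window peaks, and from suckling to adult liver 18.6% had more and 60.4% fewer. Reproducible IGF1R peaks numbered 7, 10 and 14, an order opposite to that of all peaks between newborn and adult. They made up 21.2%, 21.3% and 50.0% of its peaks, against 19.2%, 33.8% and 50.4% of the lists.

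The strongest IGF1R intronic peak was a different region at each age, and picking it by rank favours that age. In newborn liver it (chr1:137490083-137491363) was at 80.1 and 87.5, above the 73.5 and 56.3 of the adult. Suckling liver, at 87.9 and 86.1, overlapped the newborn there. The strongest suckling peak (chr1:137492203-137492754) was at 90.2 and 96.8, above the adult 64.8 and 63.2 by 25.4 points. Newborn liver, at 70.1 and 91.6, overlapped the suckling values. The strongest adult intron peak (chr1:137393503-137394488) reached 87.7 and 78.3, against 48.5 and 59.4 in suckling liver. The widest gap of a region called at all ages, 29.9 points lower from suckling to adult, was at chr1:137554672-137555173 with 30.9 and 57.1, 66.6 and 72.0, and 36.7 and 33.1. A region at 190.3 kb (chr1:137500470-137500907), singled out after its values were seen, was not called in the newborn and went from 19.9 and 22.9 in suckling to 73.2 and 71.9 in adult liver, and no other newborn tissue had a peak there.

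Binding proteins carry IGFs in blood and tissue, and the regions of the IGFBP1 and IGFBP3 neighbours on chromosome 18 differed with age in unlike ways. IGFBP1 (chr18:50018487-50022799, minus strand), a liver protein that rises in fasting, had a promoter peak (chr18:50022389-50023310) at 88.4 and 7.84 in newborn liver, where the replicates disagreed. It was at 84.0 and 81.1 in suckling and 86.3 and 85.2 in adult liver, and reproducible at both. Upstream, a region 9.2 kb before the gene (chr18:50031720-50032157) stayed high at 84.6 and 77.3, 83.7 and 80.0, and 83.3 and 81.0. A region 5.0 kb before the gene (chr18:50027375-50028170) was higher in newborn liver (77.4 and 87.3) than in suckling (21.3 and 68.6) and adult liver (74.0 and 62.2). A weak distal promoter peak (chr18:50024869-50025071) appeared in the adult alone, at 58.3 and 30.7. The window of 24.3 kb held 5, 8 and 8 peaks.

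IGFBP3 (chr18:50002921-50009425, plus strand) encodes the main IGF carrier of the circulation, and 3 of its 4 shared regions ranked higher in suckling than in adult liver. The promoter region 1.1 kb before the gene (chr18:50001615-50002070) was at 43.6 and 79.0 in newborn, 78.4 and 81.7 in suckling and 61.9 and 63.1 in adult liver. A distal promoter region (chr18:50000526-50000828) was at 45.7 and 71.7, 66.8 and 82.7, and 37.3 and 39.5, a gap of 27.3 points from suckling to adult. The strongest IGFBP3 intron (chr18:50005713-50006218) was at 44.3 and 80.4, 85.7 and 83.1, and 53.4 and 40.6, a gap of 29.6 points. Of the 4 IGFBP3 regions shared by suckling and adult liver 3 were lower in the adult, and none was higher. Over all shared liver regions 42.6% were lower and 19.9% higher in the adult, so a fall was common in these lists. At the end of IGFBP1, a reproducible exonic region (chr18:50018601-50019013) at 63.4 and 55.3 was called in suckling liver alone and in no newborn tissue, and it lies in both windows. The region between the genes (chr18:50016423-50018155), likewise in both windows, was at 12.6 and 48.5, then 92.8 and 65.9, then 77.6 and 4.05.

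IGFBP2 (chr15:118822092-118850985, plus strand), a binding protein abundant in fetal serum, had a promoter that ranked higher at both later ages. Its promoter region (chr15:118821409-118823157) was at 69.2 and 64.0 in newborn, 72.9 and 78.0 in suckling and 77.2 and 82.4 in adult liver, with the adult 8.0 points above the newborn. The strongest region outside the promoter in suckling and adult liver, 9.5 kb upstream (chr15:118812225-118813440), was at 68.4 and 81.6, 88.2 and 87.2, and 74.0 and 78.4. Downstream of the gene, the strongest newborn region (chr15:118851829-118852723) was also higher in suckling than in newborn liver but lowest in the adult, with 73.8 and 81.4, 87.2 and 83.0, and 65.2 and 59.0. IGFBP2 window peaks were near constant, at 8, 9 and 9.

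The fetal growth regulators had fewer window peaks in adult than in newborn liver, which held for LIN28B in every setting tried, whereas reproducible peaks of IGF2BP3 and HMGA2 were more numerous in the adult. Reproducible peaks also made up more of the adult list, 50.4%, than of the newborn list, 19.2%. Their share of the adult window peaks was 33.3% for IGF2BP3 and 66.7% for HMGA2. LIN28B (chr1:71173291-71296131, plus strand) went from 10 window peaks in newborn to 4 in suckling and 0 in adult liver. Of 17765 genes 85 had a larger decrease from newborn to adult. Its strongest promoter region (chr1:71172116-71172852) had −log10 p of 63.5 and 16.9 in newborn liver, at percentiles 70.2 and 74.5, and was reproducible. A promoter region further upstream (chr1:71171010-71171278) was at 64.8 and 43.5, also in newborn liver alone. Past the TSS, a region (chr1:71173992-71174718) was called in newborn (46.7 and 21.3) and suckling liver (32.9 and 50.7), and a weak one (chr1:71174865-71175152) in suckling liver at 0.314 and 31.2. None of the suckling LIN28B peaks was reproducible, and the adult list had no peak anywhere in the window.

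An intronic LIN28B region near the end of the gene (chr1:71287564-71287954) was the strongest of the locus, with −log10 p of 77.3 and 29.2 in newborn liver, at percentiles 73.9 and 86.8. It and the promoter region were the 2 reproducible LIN28B peaks of the liver, and neither overlapped a peak at a later age or in another newborn tissue. The strongest suckling region outside promoters (chr1:71294095-71294527) was at 53.8 and 49.4 in newborn and 24.9 and 65.0 in suckling liver. With 57126 top peaks a list, LIN28B had 5, 0 and 0 peaks by age, and by replicate 2 alone 3, 1 and 0. Erythroid promoters, as given above, went from 7 to 3 to 2 of 8 over the same ages, and their window peaks from 33 to 28 to 19. KLF1 was the only erythroid marker without a promoter peak in newborn liver, and it had none at the later ages. The part of erythroid cells in the LIN28B result was not tested. The 2 reproducible regions are shown because they carry it, with the FOXA letters TGTTTAC in capitals:
LIN28B promoter, newborn liver, chr1:71172578-71172777, plus strand: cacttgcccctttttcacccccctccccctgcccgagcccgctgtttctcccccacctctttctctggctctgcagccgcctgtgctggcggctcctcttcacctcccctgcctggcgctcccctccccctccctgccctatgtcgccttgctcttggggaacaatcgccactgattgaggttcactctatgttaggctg
LIN28B intron, newborn liver, chr1:71287618-71287817, plus strand: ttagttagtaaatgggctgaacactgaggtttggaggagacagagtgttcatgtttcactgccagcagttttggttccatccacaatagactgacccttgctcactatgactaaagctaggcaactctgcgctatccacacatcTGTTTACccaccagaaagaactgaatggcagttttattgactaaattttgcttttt

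IGF2BP3 (chr9:92104786-92272264, minus strand), which binds IGF2 and other messenger RNAs, had fewer window peaks in adult than in newborn liver, and several regions called at both ages ranked lower. Its window held 22, 24 and 15 peaks, a decrease from newborn to adult liver that 264 of 17765 genes exceeded, while its reproducible peaks went the other way, with 2, 6 and 5. Regions called in newborn or in newborn and suckling liver but not in the adult numbered 5 and 4, and 9 were called at all 3 ages and 1 in newborn and adult liver. The promoter region just upstream of the gene (chr9:92272277-92272967) had −log10 p of 179 and 46.0 in newborn liver (percentiles 89.1 and 93.2), 21.6 and 48.3 in suckling liver (83.9 and 89.7) and 45.1 and 9.86 in adult liver (69.0 and 22.1). Both adult replicates lay below those of both younger ages, by 20.1 points from the newborn and 14.9 from suckling. Other IGF2BP3 promoter regions were at 29.3 and 43.2, 26.9 and 38.9, and 31.0 and 33.9 (chr9:92270078-92271472), or at 66.2 and 47.2 in newborn and 41.4 and 20.5 in adult liver (chr9:92271873-92272227). The strongest region of the locus, 3.7 kb upstream (chr9:92275481-92276432), was at 98.6 and 97.1, 96.4 and 91.4, and 88.1 and 84.3, a decrease at each step without overlap. The widest gap, 40.6 points lower from suckling to adult, was in an intron (chr9:92242974-92243850) with 56.4 and 39.3, 89.4 and 85.0, and 44.4 and 39.8. Of 10 IGF2BP3 regions shared by suckling and adult liver 6 were lower and 0 higher in the adult, where 42.6% of all shared regions were lower and 19.9% higher. The promoter region with the difference is printed with its match to the ZBED6 letters GCTCGC, here on the opposite strand, in capitals:
IGF2BP3 promoter, stronger in younger liver, chr9:92272699-92272898, minus strand: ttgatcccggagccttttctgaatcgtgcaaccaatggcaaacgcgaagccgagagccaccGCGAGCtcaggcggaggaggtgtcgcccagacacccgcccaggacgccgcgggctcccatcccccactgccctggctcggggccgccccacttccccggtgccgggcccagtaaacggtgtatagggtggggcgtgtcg

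HMGA2 (chr5:30188521-30329635, plus strand), an architectural chromatin protein of the embryo, had 8, 10 and 3 window peaks in newborn, suckling and adult liver, of which 0, 2 and 2 were reproducible. Its promoter region (chr5:30187645-30188409) was at 2.24 and 46.4 in newborn, 49.9 and 54.5 in suckling and 22.7 and 61.3 in adult liver, so that newborn lay 3.5 points below suckling and the adult overlapped both. The strongest region in newborn and suckling liver (chr5:30248755-30250115), 60.8 kb into the gene, was at 71.3 and 95.3, 91.9 and 93.3, and 52.8 and 63.3, so that the adult lay below both younger ages, by 28.5 points from suckling. In adult liver the strongest region (chr5:30298486-30299651) was at 63.2 and 64.9, above the 58.1 and 57.2 of suckling liver by 5.1.

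**Figure D3:**
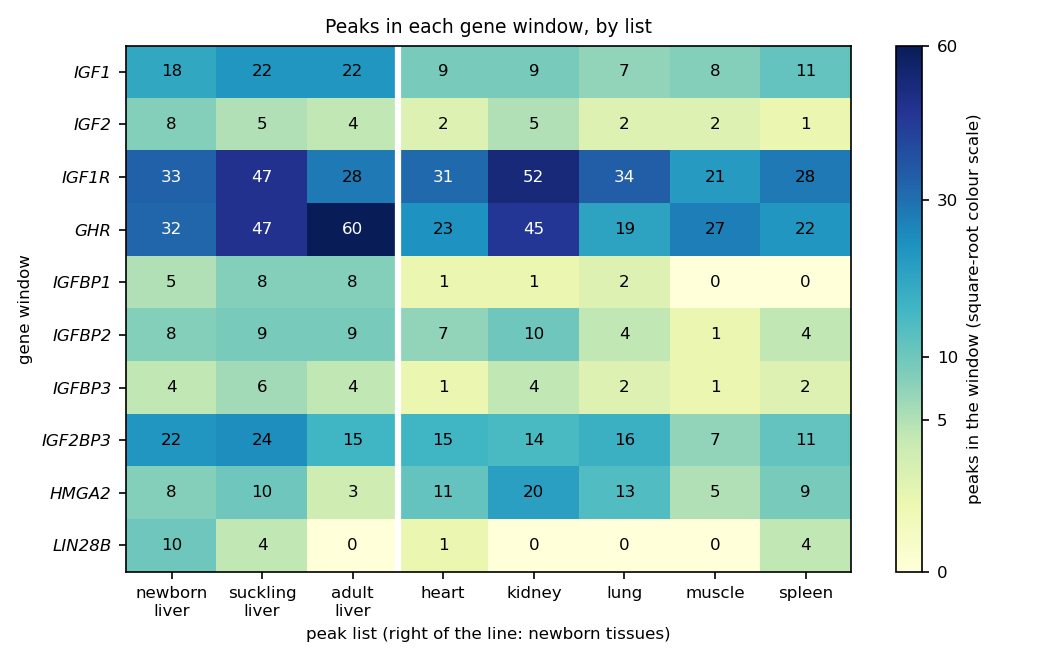
Number of peaks in the window of each member (rows) in each of the 8 lists (columns), with darker cells for more peaks. GHR goes from 32 to 60 between newborn and adult liver, LIN28B from 10 to 0, and LIN28B has peaks among the other tissues only in heart (1) and spleen (4).

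The regions of the members were set against those of the whole liver lists. Their windows held 235 liver regions, of which 86 (36.6%) were called at all 3 ages, against 37.4% of 184247 liver regions. Adult-only regions were 40 (17.0%, against 11.3%), of which GHR gave 22, suckling-only regions 41 (17.4%, against 20.6%) and newborn-only regions 22 (9.36%, against 11.6%), of which LIN28B gave 8. Regions of newborn and suckling liver were 24 (10.2%, against 10%), of suckling and adult liver 15 (6.38%, against 5.38%) and of newborn and adult liver 7 (2.98%, against 3.80%). Of the 40 adult-only member regions 22, or 55.0%, overlapped a peak of another newborn tissue, against 25.8% of all adult-only liver regions. Of 110 member regions shared by newborn and suckling liver 31 were higher and 14 lower in suckling liver, which was 28.2% and 12.7% against 28.7% and 11.8% of all. Of 101 shared by suckling and adult liver 20 were higher and 36 lower in the adult, or 19.8% and 35.6% against 19.9% and 42.6%, and of 93 shared by newborn and adult liver 14 were higher and 23 lower, or 15.1% and 24.7% against 14.9% and 28.6%.

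Letters of 7 transcription factor motifs were searched on both strands within 150 bp of the summit of the liver regions. The letters of STAT5, TTCNNNGAA, stood in 26 of the 235 member regions (11%), against 8.26% of 181415 liver regions. Those of CEBP, TTGCNNAA, a liver factor family, stood in 18.3% against 15.1%, and those of FOXA, TGTTTAC, which opens liver chromatin, in 10.2% against 5.58%. The letters of the FOXO insulin response element, CAAAACA, stood in 9.36% against 7.16%, those of ZBED6, GCTCGC, a repressor of pig IGF2, in 3.83% against 6.83%, those of HNF4A, CAAAGTCCA, in 0.851% against 1.10%, and those of HNF1 in 0 member regions against 0.0248% of all. Member regions had a median GC content of 48.5%, and all liver regions of 51.5%. Within 100 bp of the summit the FOXA share was 6.38% against 4.24%.

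The STAT5 letters were concentrated at IGF1, where 9 of 27 regions (33.3%) held them. None of the other genes with at least 20 liver regions, 1650 with IGF1, had as high a share, and the median gene had 8.0%. Within 100 bp of the summit 7 of 27 IGF1 regions (25.9%) held them, and again none of these other genes had as high a share. For comparison, 6 of 69 GHR regions, 4 of 51 IGF1R regions and 3 of 32 IGF2BP3 regions held the letters. CEBP letters also stood in 9 of 27 IGF1 regions, a share that 33 other genes reached. These were 2 of 28 shares of a motif in 1 of the 4 members with enough regions, and IGF1 was singled out after its values were seen. A match says only that the letters stand there. The GC content of the IGF1 regions ran from 40.2% to 52.8%. Only the region at 52.8% lay above the median of all liver regions, 51.5%, and every other IGF1 region lay below it. Genes were not matched on GC content, and its part in these shares was not tested. The matches outside exons are printed with 12 bases either side and the letters in capitals, on the plus strand, the strand of the gene:
IGF1, all 3 ages, chr5:81772453-81772485: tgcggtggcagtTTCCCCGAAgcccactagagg
IGF1, adult alone, chr5:81772899-81772931: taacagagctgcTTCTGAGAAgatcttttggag
IGF1, adult alone, chr5:81788609-81788641: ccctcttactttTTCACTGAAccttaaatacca
IGF1, newborn and adult, chr5:81790037-81790069: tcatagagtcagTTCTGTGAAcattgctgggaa
IGF1, all 3 ages, chr5:81795245-81795277: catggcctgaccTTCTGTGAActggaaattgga
IGF1, all 3 ages, chr5:81824296-81824328: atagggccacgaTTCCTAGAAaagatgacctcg
IGF1, all 3 ages, chr5:81860304-81860336: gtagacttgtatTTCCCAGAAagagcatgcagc
IGF1, adult alone, chr5:81861047-81861079: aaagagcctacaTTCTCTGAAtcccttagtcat

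The adult intron at chr5:81788604-81789223 is among these, with a STAT5 match 143 bp before its summit and CEBP matches within 100 bp of it. The region at 28.1 kb that was stronger in the adult is another. Of the 9 IGF1 regions with STAT5 letters, those called at all 3 ages numbered 5 and those in the adult alone 3. Among all 27 IGF1 regions these numbers were 15 and 4, so the few matches do not tie the letters to an age.

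**Figure D4:**
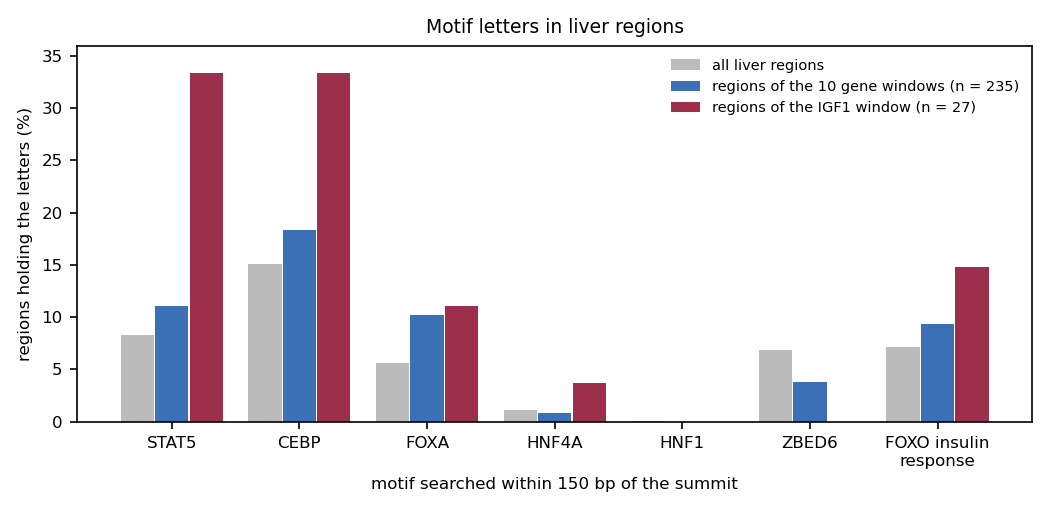
Percent of liver regions holding the letters of each of 7 motifs within 150 bp of the summit, for all liver regions, the regions of the 10 members and those of IGF1. For STAT5 the bars stand at 8.26%, 11% and 33.3%, and for ZBED6 the members stand below all regions.

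Among newborn tissues, promoter peaks were found at 10 members in liver, 9 in heart, 8 in kidney, 8 in lung, 6 in muscle and 9 in spleen. With reproducible peaks alone they numbered 4 in liver, 3 in kidney and 2 in each of the others, and by replicate 2 alone 3 in kidney and 4 in spleen. Of all protein-coding genes 68.0% had them in heart, 75.2% in kidney, 70.6% in lung, 61.5% in muscle and 68.9% in spleen. IGF1, IGF1R, GHR, IGF2BP3 and HMGA2 had a promoter peak in all 6 newborn tissues. IGF2 lacked one in lung, IGFBP2 and IGFBP3 in muscle, IGFBP1 in kidney, muscle and spleen, and LIN28B everywhere but in liver and spleen. Window peaks numbered 147 in liver, 160 in kidney, 101 in heart, 99 in lung, 92 in spleen and 72 in muscle. With 57126 top peaks from every list this order nearly reversed, with 79 in heart, 75 in lung, 72 in muscle, 66 in liver, 62 in kidney and 59 in spleen.

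Peaks called at the ligand promoters differed among newborn tissues, but few of them were reproducible. At the main IGF1 TSS cluster, liver was at 58.8 and 60.4 and kidney at 69.9 and 50.8, so that both replicates stood above 50 in these tissues and in no other. Muscle was at 42.2 and 55.2, spleen at 32.3 and 33.7, and in heart (75.9 and 2.30) and lung (1.63 and 49.3) the replicates disagreed. No newborn tissue had a reproducible peak at this cluster. A promoter peak 2.1 kb before the gene was reproducible in spleen at 64.9 and 61.2. IGF2 had no peak at its upstream promoter in any of the 6 tissues. Inside the gene, 1.75 to 1.81 kb from its start, peaks were called in liver (17.7 and 52.0), heart (18.4 and 52.0), kidney (60.9 and 54.6) and muscle (31.3 and 41.5). Only the kidney peak there was reproducible. Downstream, muscle had a promoter peak of its own (chr2:1480408-1480781) with −log10 p of 11.4 and 16.1, at 55.2 and 54.9. A kidney peak (chr2:1476894-1477475, at 62.1 and 36.3) overlapped those of heart (31.7 and 16.4) and liver (35.0 and 63.6). It also overlapped the spleen peak (chr2:1476891-1477057, at 29.9 and 36.3), which did not reach the heart and liver peaks. None of these IGF2 peaks at the downstream promoters was reproducible.

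The receptors were open in every newborn tissue. The IGF1R promoter was at 91.9 and 95.9 in liver, 94.7 and 79.5 in heart, 95.1 and 97.0 in kidney, 90.1 and 82.8 in muscle and 96.3 and 89.9 in spleen, while in lung the replicates were at 27.9 and 94.6. An IGF1R promoter peak at an internal TSS (chr1:137640314-137640503) was called in kidney alone, at 7.91 and 18.3. The main GHR promoter was at 87.7 and 95.6 in liver, 93.9 and 79.8 in heart, 79.7 and 94.4 in kidney, 93.6 and 90.5 in lung and 78.1 and 62.6 in muscle, and reproducible in each of these. In spleen it was at 55.2 and 20.9 and not reproducible. Both spleen replicates were thus below those of the other 5 tissues.

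Of the 17 muscle regions called in no other newborn tissue 10 lay at GHR, whose window of 316 kb held 27 of the 72 muscle window peaks. Kidney had 23 of its 43 such regions at IGF1R, in a window of 327 kb. Such regions made up 25.8% of the muscle member regions, against 23.2% of all muscle regions. The strongest muscle region of this kind at GHR was a distal part of the internal promoter (chr16:27200802-27201425), with −log10 p of 39.4 and 32.1 at percentiles 85.0 and 76.7. The other reproducible ones were intronic, at 60.1 and 69.5 (chr16:27218284-27218988), 71.3 and 66.7 (chr16:27280751-27281063) and 69.3 and 64.4 (chr16:27347062-27347395). Lung had the strongest GHR region of a lone tissue (chr16:27375673-27376687), at 89.4 and 90.2. Kidney had reproducible GHR regions of its own at 64.9 and 66.3 (chr16:27142721-27143037), 65.0 and 59.4 (chr16:27150013-27150370) and 87.1 and 76.2 (chr16:27367594-27368236), and newborn liver at 78.4 and 79.0 (chr16:27265129-27265519). At IGF1R, liver had lone regions at 76.2 and 82.1 (chr1:137423417-137423760) and 81.6 and 79.3 (chr1:137425104-137425575), kidney at 81.4 and 64.3 (chr1:137480780-137481158) and 76.2 and 72.6 (chr1:137613301-137613530), and lung at 72.6 and 68.8 (chr1:137607606-137608127).

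For IGF1, reproducible regions of a lone newborn tissue were an exonic one in liver at 85.9 and 68.5 (chr5:81833153-81833532), an intronic one in kidney at 85.1 and 73.4 (chr5:81818752-81819052) and one 9.3 kb upstream in spleen at 66.9 and 60.6 (chr5:81752459-81752908). IGFBP1 had 5 window peaks in liver, 2 in lung, 1 in heart, 1 in kidney and 0 in muscle and spleen, and both of its reproducible peaks, 5.0 kb (77.4 and 87.3) and 9.2 kb (84.6 and 77.3) upstream, were found in liver alone. Its promoter peak in lung was at 44.1 and 17.3 and a distal one in heart at 45.8 and 55.1. IGFBP2 had an intronic region in kidney alone (chr15:118836237-118836623) at 65.5 and 58.0. IGFBP3 had a reproducible distal promoter peak in kidney, at 71.4 and 68.3, and kidney also had a reproducible peak over the IGFBP3 TSS itself (chr18:50002653-50003050), at 58.1 and 54.2, where lung (26.5 and 28.7) and spleen (11.5 and 12.3) were lower and liver had none.

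Of the fetal growth regulators, LIN28B had 10 window peaks in newborn liver, 4 in spleen, 1 in heart and 0 in kidney, lung and muscle. Spleen peaks past its TSS were weak, at 8.12 and 19.4 and at 15.0 and 27.4, in a list where 8 of 8 erythroid promoters were open, and the part of these cells was not tested. The heart peak (chr1:71205372-71205817), 32.3 kb into the gene, was reproducible at 77.0 and 79.8 and found in no other tissue. The IGF2BP3 promoter was reproducible in liver (89.1 and 93.2) and lung (79.1 and 69.1), while the same peak, about 0.5 kb upstream, was in heart at 27.1 and 9.36, in kidney at 10.7 and 44.3, in muscle at 29.0 and 34.7 and in spleen at 12.1 and 89.3. A separate heart peak just inside the gene was at 65.3 and 34.8. Muscle had a lone IGF2BP3 intron at 62.7 and 65.4 (chr9:92201020-92201422).

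HMGA2 had more window peaks in kidney, 20, than in the other newborn tissues, of which lung had 13, heart 11, spleen 9, liver 8 and muscle 5. With 57126 top peaks from every list this order was lost, with 11 in lung, 10 in kidney and 10 in heart, and by replicate 1 alone heart had 10 and kidney 9. Kidney had reproducible regions of its own near the end of the gene, at 78.9 and 85.8 (chr5:30304383-30305026) and 86.1 and 70.0 (chr5:30327534-30328342), and heart at 80.4 and 84.3 (chr5:30326270-30327020). The HMGA2 promoter was at 70.0 and 55.1 in kidney, 52.3 and 50.5 in heart, 36.2 and 57.0 in lung, 40.0 and 29.7 in spleen, 18.6 and 5.21 in muscle and 2.24 and 46.4 in liver.

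Newborn windows of the members held 302 regions in all, of which 165 (54.6%) were called in 1 tissue and 21 (6.95%) in all 6, against 56.6% and 8.08% of 252940 newborn regions. By tissue, the share of member regions called in that tissue alone was 32.4% in liver (29.3% over all regions), 29.3% in lung (23.0%), 28.3% in kidney (36.1%), 25.8% in muscle (23.2%), 20.8% in heart (18.3%) and 15.1% in spleen (25.3%).

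Other genes of the axis were taken from 3 lists of 28 genes. Receptors and signalling genes, among them INSR, IRS1, JAK2 and STAT5B, had promoter peaks at 10 of 10 genes in every list, and 4 had more and 2 fewer window peaks in adult than in newborn liver. IRS2, an adaptor of insulin signalling, had 7, 9 and 12, and GRB10, an imprinted inhibitor of the receptor, 20, 23 and 11. Binding proteins and their partners had promoter peaks at 6, 5 and 4 of 8 genes by liver age, with 2 having more and 5 fewer window peaks in the adult. IGFALS, which holds circulating IGF in a large complex, had a promoter peak at each age. Fetal and imprinted genes had promoter peaks at 8, 9 and 7 of 9 annotated genes, and 7 had fewer window peaks in the adult and 1 more. Over all protein-coding genes these shares were 73.7%, 75.0% and 69.8% with a promoter peak by age, 28.4% with more and 46.2% with fewer window peaks. IGF2BP1, a relative of IGF2BP3 that was likewise characteristic of the fetus, had 9, 10 and 1 window peaks and no promoter peak in adult liver, and MEST, an imprinted gene, had 5, 4 and 2.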

How the data were processed

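Chromatin accessibility was measured by ATAC-seq in 16 libraries, 2 for each of 8 groups. Per the methods and the labels, the authors aligned paired reads to Sscrofa11.1 with Bowtie2, removed low-quality, mitochondrial and duplicate reads with SAMtools 1.3.1, called peaks in each replicate with MACS2 and merged replicates with the IDR tool. Deposited lists hold, per peak, a −log10 p for either replicate and, as a score, the scaled IDR, where 540 stands for an IDR of 0.05; the signal and q-value columns hold a constant. MACS2 options for shifting reads and for whole fragments were both named, which can move summits. Lists were not filtered on IDR and hold no read counts, so depth, and with it a limit of detection, is unknown from them. An absent peak is a peak that was not called.

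Promoters and gene windows were built from RefSeq, and an overlap of 1 bp counted. Regions joined overlapping peaks of the liver or the newborn lists. Percentiles were taken within a list and replicate, and ages were called different where replicate percentiles did not overlap. No test was made. Motif letters were searched 150 bp either side of summits. Alternatives were an IDR of 0.05 or lower, 57126 top peaks a list, either replicate alone, narrower promoters (1 kb and 100 bp), windows without 10 kb, joining at 50% overlap and 100 bp for motifs.

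Named regions were, for each member, all promoter regions, reproducible liver regions of 1 age, the strongest region outside promoters in each liver list, the widest gap without overlap, and reproducible newborn regions of 1 tissue. Picking a region as the strongest of an age favours a higher rank at that age. The members and lists were chosen with earlier results of these data known. H19 and the heart marker MYH6 had no entry in the annotation and were not analysed here. Scripts were tested on simulated data and ran on Python 3.11.15, NumPy 2.4.6, pandas 2.3.3 and matplotlib 3.10.9.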

Additional observations from a re-analysis of the deposited data

How the results depend on the processing

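Among alternative values of the main results 74 stayed within 1.5 times the count, or within the 95% binomial interval of the share, as reported, and 47 did not. With peaks at an IDR of 0.05 or lower, members with a promoter peak numbered 4 in newborn liver, 3 in kidney and 2 each in heart, lung, muscle and spleen. Window peaks then numbered 26, 53 and 68 in newborn, suckling and adult liver, 50 in kidney, 17 each in muscle and spleen and 13 each in heart and lung. Newborn-only regions were then 2.53% (2.33% of all liver regions), adult-only 26.6% (27.6%) and regions of all 3 ages 21.5% (23.2%), regions lower in the adult 56.1% from suckling (49.9%) and 50.0% from newborn liver (33.5%), and newborn regions of 1 tissue 66.7% (65.8%). With 57126 top peaks a list, 5 members had a promoter peak in kidney, and window peaks numbered 66, 61 and 72 in liver by age, 62 in kidney, 59 in spleen, 79 in heart, 75 in lung and 72 in muscle. Newborn-only regions were 18.3% (13.1%), regions of all ages 29.8% (32.2%), regions lower in suckling than newborn liver 22.9% (20.9%), regions higher in adult than suckling liver 35.6% (32.8%) and newborn regions of 1 tissue 60.8% (57.6%). FOXA letters within 100 bp stood in 6.38% (4.24%). By either replicate alone, window peaks ran from 59 to 71, 60 to 61 and 70 to 73 in liver by age, 61 to 67 in kidney and 57 to 61 in spleen and 60 to 70 in lung, and members with a promoter peak from 3 to 6 in kidney and 4 to 6 in spleen. Newborn-only regions ran from 13.0% to 16.8% and newborn regions of 1 tissue from 59.4% to 61.3%.

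The adult minus newborn count turned sign for IGF2 (2), IGF1R (7), IGF2BP3 (3) and HMGA2 (2) at an IDR of 0.05 or lower. By either replicate alone it ran from -1 to 2 for IGF2, from -4 to 2 for IGF1R and from -1 to 1 for IGFBP2. The cause was not tested. That of IGFBP3, 0, ran from -2 to 3. Those of GHR, IGF1, IGFBP1 and LIN28B kept their sign in every alternative run. No paired analysis was possible because no result comes from a test. The liver ages were different animals, and differences between newborn tissues within a replicate number were not computed.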
